A study of Arabidopsis thaliana with 24 samples.

Results

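Neo-tetraploid roots grown with added NaCl were compared with neo-tetraploid roots grown without it, across all genes. The libraries were chosen by their labels alone: 3 of neo-tetraploid roots with 35 mM NaCl and 3 of neo-tetraploid control roots, 6 of the 24 libraries of the series. The neo-tetraploids are Arabidopsis thaliana Col-0 plants with a duplicated whole genome, obtained from an earlier study, and the number of lines behind these libraries is not given in the sources used here. Neo-tetraploid NaCl, neo-tetraploid control, diploid NaCl and diploid control plants were all wild-type Col-0 and grew for 2 weeks on agar with Hoagland nutrients and sucrose. Each library holds RNA of pooled plants, the replicates came from one experiment, and the p-values measure only the spread between such pools. The 6 matching diploid root libraries were used to ask whether the response differed between ploidies.

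Sodium reaches the plant through the root. Roots limit it by pumping it out through the SOS pathway, by taking it back from the xylem before it reaches the leaf, and by keeping up the uptake of potassium, with which it competes. Salt also lowers the water potential of the medium, and abscisic acid then induces genes for compatible solutes such as proline and for dehydration-protective proteins.

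In neo-tetraploid roots, 642 of 20239 tested genes were differentially expressed genes (DEGs), called where the adjusted p was below 0.05 and NaCl and control differed 2-fold or more. Of these, 220 were higher with NaCl (1.09% of the genes tested) and 422 were lower (2.09%). At the adjusted p alone, 863 genes were higher (4.26%) and 1513 lower (7.48%). The median log2 fold change over all tested genes was -0.004. Among the DEGs, 44 were at least 4-fold higher and 70 at least 4-fold lower. Within the DEGs, which were picked for a difference between these libraries, 594 had counts that did not overlap between the 3 NaCl and the 3 control libraries. The share over all tested genes is not given here, so this count describes the DEGs and adds no support. Replicate 2 weighed most on the counts: without NaCl replicate 2 there were 161 higher and 237 lower DEGs, and without replicate 2 in every group 88 and 158.

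The libraries were of even depth, with 11202503 to 11517737 expected counts each. On the first principal component, which held 47.3% of the variance, the NaCl libraries stood at 24.84 to 40.19 and the control libraries at -36.62 to -24.38. Replicates 1 and 3 separated in both groups on the second, with 22.9%. Root identity markers were present, and the 15 leaf, meristem and stomata markers were nearly absent. Those shoot markers summed to 0.53 to 0.73 FPKM in NaCl roots and 0.3 to 0.93 FPKM in control roots, against 149 to 207 FPKM in the neo-tetraploid shoot libraries. FPKM is the number of fragments scaled to the length of the gene and to the mapped reads of the library. A ribosomal RNA, AT3G41768, took 5.09 to 7.28% of the counts in NaCl roots and 5.38 to 5.82% in control roots.

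The ion question was taken first. HKT1 encodes a sodium transporter that retrieves sodium from the xylem sap. HKT1 had 2.3, 3.95 and 1.53 FPKM in NaCl roots, against 0.2, 0.3 and 0.25 FPKM in control roots. Every NaCl library was thus several-fold above every control library, at a low level throughout. The log2 fold change was 3.31 ± 0.49 (SE here and below, adjusted p = 0.0012), a 9.89-fold rise. In these bulk samples, more cells that express a gene and more RNA per cell cannot be told apart.

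HAK5 encodes the high-affinity potassium uptake transporter of the root. HAK5 had 20.3, 14.3 and 3.63 FPKM in NaCl roots, against 2.58, 1.66 and 1.16 FPKM in control roots. The groups did not overlap, and replicate 3 was the lowest of its group both with and without NaCl. HAK5 rose 6.18-fold (log2 fold change 2.63 ± 0.23, adjusted p = 5.1e-05). In diploid roots the log2 fold change was 1.54 ± 0.26, and the 2 responses differed by 1.09 ± 0.36 with an adjusted p of 0.31 for the interaction.

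CHX17, a cation/proton exchanger of the endomembranes, fell. CHX17 had 19.8, 23.8 and 42.1 FPKM in NaCl roots, against 54.4, 59.8 and 76.5 FPKM in control roots, a log2 fold change of -1.27 ± 0.17 (adjusted p = 0.00066). HKT1 and CHX17 were the DEGs among 15 tested genes of sodium transport and the SOS pathway. That is 6.67% in each direction, against 1.09% higher and 2.09% lower over all genes. The list median log2 fold change was 0.14. SOS3, the calcium sensor of the SOS pathway, averaged 18.5 ± 2.74 FPKM in NaCl roots and 15.8 ± 1.64 FPKM in control roots (SD, n = 3 each), and its log2 fold change of 0.18 ± 0.14 did not pass the test (adjusted p = 0.46).

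HAK5 was the one DEG among 26 tested genes of potassium transport and its regulators (3.85%, against 1.09% of all genes higher). The list median log2 fold change was 0.02. AKT1, the inward potassium channel of root cells (KT1 in the reference), averaged 85.9 ± 7.72 FPKM in NaCl roots and 86.2 ± 5.16 FPKM in control roots (log2 fold change -0.06 ± 0.12, adjusted p = 0.8). RAP2.11 and MYB51 encode transcription factors known to act on HAK5. RAP2.11 had 28.2, 29.3 and 19.7 FPKM in NaCl roots, against 46.5, 38.1 and 32.4 FPKM in control roots, and fell by 0.66 ± 0.13 on the log2 scale (adjusted p = 0.0069), less than the 2-fold needed for a DEG. MYB51 averaged 15.6 ± 9.43 FPKM in NaCl roots and 32.1 ± 6.65 FPKM in control roots. Its groups overlapped, and the log2 fold change of -1.17 ± 0.5 did not pass the test (adjusted p = 0.16).

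**Figure D1:**
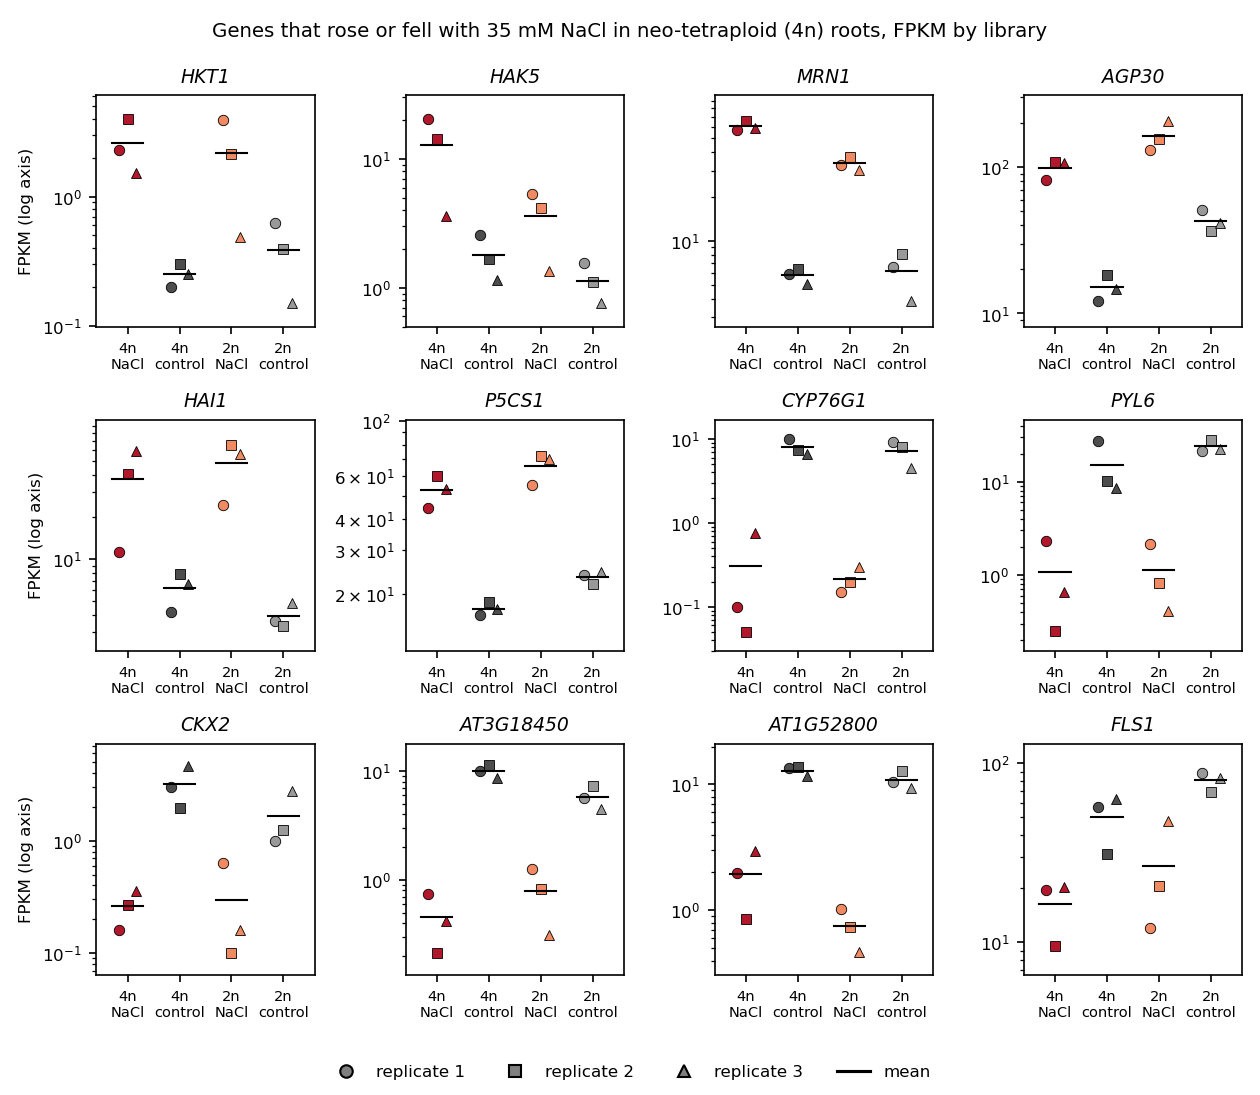
FPKM (log axis) of 12 genes in each neo-tetraploid (4n) and diploid (2n) root library with NaCl and without; symbols mark the replicate number and lines the mean of 3 libraries. For every gene shown the 3 neo-tetraploid NaCl libraries lie wholly above or wholly below the 3 control libraries, for HKT1 at 1.53 to 3.95 against 0.2 to 0.3 FPKM.

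Several abscisic acid and dehydration genes rose. Of 39 tested members, 9 were higher DEGs (23.1%, against 1.09% of all genes) and 1 was lower (2.56%, against 2.09%). The lower one was NCED9, whose values were seen first. The median log2 fold change was 0.63, against -0.004 over all tested genes. In diploid roots 12 members were higher DEGs and the median was 0.67. Without control replicate 2, 5 members were higher DEGs.

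KIN1 encodes a small protein induced by cold and abscisic acid. KIN1 had 701, 689 and 523 FPKM in NaCl roots, against 234, 198 and 157 FPKM in control roots, and rose by 1.65 ± 0.16 on the log2 scale (adjusted p = 9.7e-05). HAI1 encodes a protein phosphatase of clade A, which holds back abscisic acid signalling. HAI1 had 11.2, 40.6 and 59.5 FPKM in NaCl roots, against 4.19, 7.84 and 6.67 FPKM in control roots. NaCl replicate 1 was far below the other two NaCl libraries but still above all controls, and the log2 fold change was 2.37 ± 0.3 (adjusted p = 0.00036).

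RD22 encodes a dehydration-induced protein with a BURP domain. RD22 had 7.49, 10.1 and 8.22 FPKM in NaCl roots, against 2.3, 3.26 and 3.89 FPKM in control roots (log2 fold change 1.39 ± 0.19, adjusted p = 0.00056). LTP3, a lipid transfer protein, had 21.6, 27.1 and 14.2 FPKM in NaCl roots, against 2.39, 3.72 and 5.46 FPKM in control roots (2.34 ± 0.27, adjusted p = 0.00029). LTP3 has a close copy beside it, LTP4, and how the reads were shared between them is uncertain. The other higher DEGs of the list, named after their values were seen, were GolS2, HAI2, LEA7, LEA4-5 and LTP4.

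P5CS1, the enzyme that commits glutamate to proline synthesis, had 44.6, 60 and 53.2 FPKM in NaCl roots, against 16.4, 18.6 and 17.3 FPKM in control roots. The libraries of each group lay close together, and P5CS1 rose 2.89-fold (log2 fold change 1.53 ± 0.11, adjusted p = 1.1e-05). It was the one DEG of 9 tested genes of proline metabolism and transport (11.1%, against 1.09% of all genes higher). In diploid roots P5CS1 rose by 1.41 ± 0.1.

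Many abscisic acid-induced genes carry the core of the abscisic acid-responsive element, ACGTG, near their start. The 5-letter motif was searched on both strands in the 250 bases before and 50 bases after the annotated start of each gene in the TAIR10.1 assembly of RefSeq. It lay in 26.7% of the windows of all 27443 protein-coding genes, in 26 of 39 tested members of the list (66.7%) and in 5 of the 9 members that rose. The letters of both strands overlap where CACGTG occurs. The window of KIN1 is shown because it had the smallest adjusted p among the members that rose, with the match in capitals.
KIN1 (chr5:5209467-5209766, plus strand): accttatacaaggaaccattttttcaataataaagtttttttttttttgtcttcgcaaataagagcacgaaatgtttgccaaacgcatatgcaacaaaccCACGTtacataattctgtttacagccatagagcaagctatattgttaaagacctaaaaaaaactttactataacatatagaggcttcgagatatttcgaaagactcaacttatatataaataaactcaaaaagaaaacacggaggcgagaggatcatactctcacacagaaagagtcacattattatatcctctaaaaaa
Over all higher DEGs, 74 of 214 windows held the motif (34.6%), against 28.1% for tested genes and 29% for lower DEGs. Such a match is a description of the letters and not of a bound site. In the windows of HAI1 and LTP3 these letters were not present.

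The largest rises outside the lists included genes of lipid transfer, the cell wall and triterpene synthesis. AT2G37870, which the reference names a bifunctional inhibitor or lipid-transfer protein, had the largest of the 12 named. It had 47.5, 74.4 and 59.9 FPKM in NaCl roots, against 4.31, 7.03 and 4.32 FPKM in control roots, an 11.2-fold rise (log2 fold change 3.48 ± 0.15, adjusted p = 1.8e-07). A second gene of that description, AT4G33550, rose by 2.25 ± 0.14 (adjusted p = 3.7e-06).

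MRN1 encodes marneral synthase, which makes a root triterpene. MRN1 had 56.8, 65.4 and 58.3 FPKM in NaCl roots, against 5.93, 6.41 and 5.05 FPKM in control roots. The NaCl libraries were nearly equal and about 10 times the controls, a log2 fold change of 3.33 ± 0.16 (adjusted p = 2.3e-07). AGP30, an arabinogalactan protein of the root cell wall, had 81.8, 109 and 107 FPKM in NaCl roots, against 12.1, 18.3 and 14.8 FPKM in control roots (2.67 ± 0.19, adjusted p = 1.2e-05).

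ATC, a relative of the flowering repressor TFL1, had 20.7, 26.2 and 20.3 FPKM in NaCl roots, against 3.1, 2.27 and 6 FPKM in control roots (2.5 ± 0.26, adjusted p = 0.00013). The remaining genes with the largest rises were AT3G19430, AT3G02620 and AT4G18280. The reference names them as related to late embryogenesis abundant proteins, as a stearoyl-acyl-carrier-protein desaturase and as a glycine-rich cell wall protein. They rose by 2.43 to 2.9 on the log2 scale, with adjusted p from 1.7e-05 to 0.00018, and had no overlap between groups.

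The largest falls included 3 cytochromes P450, 3 dioxygenases and genes of abscisic acid and cytokinin. CYP76G1, a cytochrome P450, had 0.1, 0.05 and 0.76 FPKM in NaCl roots, against 10.1, 7.37 and 6.72 FPKM in control roots. It was close to absent with NaCl, a 26.3-fold fall (log2 fold change -4.71 ± 0.48, adjusted p = 0.00013). Another pair of cytochromes P450, the neighbours CYP712A2 and CYP93D1, fell by 3.88 ± 0.41 (adjusted p = 0.00017) and by 3.49 ± 0.41 (adjusted p = 0.0003). Their levels were 0.06 to 0.4 FPKM in NaCl roots against 1.68 to 4.7 FPKM in control roots for CYP712A2, and 0.58 to 2.05 against 8.02 to 19.9 FPKM for CYP93D1.

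PYL6 is an abscisic acid receptor. PYL6 had 2.32, 0.25 and 0.65 FPKM in NaCl roots, against 27, 10.1 and 8.55 FPKM in control roots. Its replicate 1 was the highest of both groups, and the groups did not overlap (log2 fold change -3.83 ± 0.47, adjusted p = 0.00035). CKX2, a cytokinin oxidase, which degrades the hormone, had 0.16, 0.27 and 0.36 FPKM in NaCl roots, against 2.99, 1.94 and 4.63 FPKM in control roots (-3.61 ± 0.46, adjusted p = 0.00043).

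AT3G18450, of the PLAC8 family, had 0.74, 0.21 and 0.42 FPKM in NaCl roots, against 10.1, 11.3 and 8.65 FPKM in control roots (-4.47 ± 0.34, adjusted p = 1.7e-05). The dioxygenase genes AT1G52790, AT1G52800 and AT1G15540 fell by 3.47 ± 0.48, 2.77 ± 0.3 and 3.45 ± 0.42 on the log2 scale. Of these, AT1G52800 had 1.98, 0.86 and 2.98 FPKM in NaCl roots, against 13.4, 13.7 and 11.6 FPKM in control roots. The others of the 12 largest falls were AT5G40590, AT2G27402 and AT5G38910, named in the reference as a C1-domain protein, a plastid transcriptionally active protein and a cupin. AT5G38910 fell by 2.86 ± 0.61 (adjusted p = 0.01), and lost its call without NaCl replicate 2 (adjusted p = 0.055) or control replicate 2 (adjusted p = 0.06).

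Transcription factors that respond within minutes to wounding, chitin or cold were lower in many cases and higher in none. Of 32 tested members, 9 were lower DEGs (28.1%, against 2.09% of all genes) and none was higher. At the adjusted p alone 19 were lower (59.4%, against 7.48%) and none was higher. The median log2 fold change was -0.81, against -0.03 in diploid roots, where 1 member was a lower DEG. In the test of the interaction 1 member passed, DREB2A. Left without NaCl replicate 2, the list had 2 lower DEGs, and without control replicate 1 it had 5. It had 1 without replicate 2 in every group, and 5 with no replicate block.

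WRKY33, a regulator of defence against fungi, had 75.3, 75.4 and 98.7 FPKM in NaCl roots, against 225, 171 and 157 FPKM in control roots (log2 fold change -1.17 ± 0.21, adjusted p = 0.0037). WRKY40, a repressor of defence genes, had 3.63, 2.33 and 3.8 FPKM in NaCl roots, against 14, 8.8 and 9.56 FPKM in control roots (-1.76 ± 0.29, adjusted p = 0.002). Every NaCl library lay below every control library for both genes. In diploid roots, WRKY40 had 4.92, 1.8 and 1.32 FPKM with NaCl, against 1.69, 2.17 and 1.76 FPKM in the control, so that neo-tetraploid control roots held the highest levels of the 4 groups. The difference between the WRKY40 responses was -2.12 ± 0.46 and did not pass the test of the interaction (adjusted p = 0.14).

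RHL41, a zinc-finger protein also known as ZAT12, had 31.2, 25.4 and 28.4 FPKM in NaCl roots, against 55.9, 48.8 and 59 FPKM in control roots (log2 fold change -1 ± 0.11, adjusted p = 0.00017). AT5G51190, named in the reference as an integrase-type DNA-binding protein, averaged 10.1 ± 6.58 FPKM in NaCl roots and 28.7 ± 18.1 FPKM in control roots. Its groups overlapped, and its call (adjusted p = 0.0067) was lost without NaCl replicate 2 or control replicate 1 (adjusted p = 0.068 each).

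The core of the W-box, TTGAC, to which WRKY proteins bind, was searched in the same windows on both strands. It lay in 51.4% of the windows of tested genes, in 25 of 32 members of the list (78.1%), in 8 of the 9 that fell, and in 276 of the 410 windows of all lower DEGs (67.3%). For the higher DEGs the share was 45.3%. The windows of WRKY33 and RHL41 are shown, with 2 matches each in capitals. In RHL41 the matches lie end to end on opposite strands.
WRKY33 (chr2:16107985-16108284, plus strand): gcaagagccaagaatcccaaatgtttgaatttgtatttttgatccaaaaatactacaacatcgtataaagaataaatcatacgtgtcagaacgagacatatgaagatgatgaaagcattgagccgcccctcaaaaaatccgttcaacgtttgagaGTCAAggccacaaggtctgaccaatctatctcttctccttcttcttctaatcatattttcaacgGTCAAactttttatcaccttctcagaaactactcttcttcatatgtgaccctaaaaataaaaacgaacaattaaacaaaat
RHL41 (chr5:24102564-24102863, plus strand): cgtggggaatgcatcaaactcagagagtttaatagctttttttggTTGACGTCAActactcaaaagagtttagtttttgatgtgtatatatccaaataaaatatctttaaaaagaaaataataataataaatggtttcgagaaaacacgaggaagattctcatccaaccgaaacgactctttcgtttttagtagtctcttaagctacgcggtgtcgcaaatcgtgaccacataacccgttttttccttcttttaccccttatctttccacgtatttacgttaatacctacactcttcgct

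Touch, chitin and early defence genes showed the same direction, with 5 lower DEGs (25%, against 2.09% of all genes) and no higher one among 20 tested. Their median was -0.73, against -0.2 in diploid roots, and none passed the interaction. SYP122, a syntaxin of secretion, had 58.1, 49 and 61.9 FPKM in NaCl roots, against 126, 108 and 97.9 FPKM in control roots (log2 fold change -1.02 ± 0.15, adjusted p = 0.0012). The list had no DEG in edgeR without NaCl replicate 1 and none without NaCl replicate 2. It had 3, 1 and 2 without control replicates 1, 2 and 3, and 2 with no replicate block. CML37 and CML38, which encode calmodulin-like proteins, and PROPEP3, the precursor of a defence peptide, had log2 fold changes of -1.08 ± 0.25, -1.14 ± 0.27 and -1.48 ± 0.37, and each lost its call without NaCl replicate 1 or NaCl replicate 2. CML37 also lost it without control replicate 1, CML38 without any one of the 3 controls, and PROPEP3 without control replicate 2 or 3. The remaining lower DEG, CYP81F2, is counted in the indole glucosinolate list as well and is described there.

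**Figure D2:**
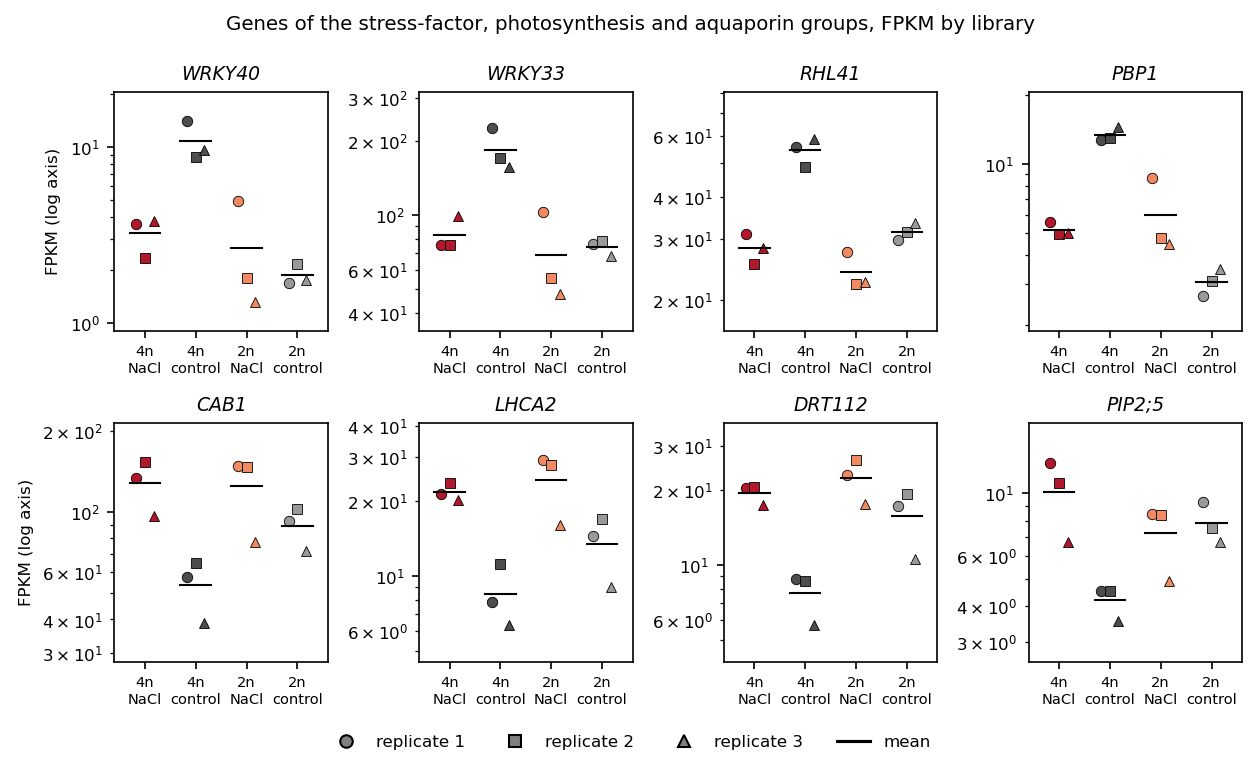
FPKM (log axis) of 8 genes by library in neo-tetraploid (4n) and diploid (2n) roots with NaCl and without; symbols mark the replicate number and lines the mean of 3 libraries. The upper genes are lower with NaCl in neo-tetraploid roots, WRKY40 at 2.33 to 3.8 against 8.8 to 14 FPKM, and the photosynthesis genes and PIP2;5 are higher, CAB1 at 96.6 to 154 against 38.8 to 64.8 FPKM.

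Nuclear genes of photosynthesis rose in many cases and fell in none. All 56 were tested, 23 were higher DEGs (41.1%, against 1.09% of all genes) and none was lower. At the adjusted p alone 40 were higher (71.4%, against 4.26% of all genes) and none was lower. The median log2 fold change was 1, against 0.27 in diploid roots, where none was a DEG in either direction. None of the 56 passed the interaction at the adjusted p. Single libraries left out gave 19 to 24 higher DEGs, replicate 2 left out of every group gave 12, and the fit with no replicate block gave 13.

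Summed over the 56 genes, the level was 1217, 1446 and 854 FPKM in NaCl roots, against 724, 771 and 434 FPKM in control roots. In diploid roots the sums were 1410, 1653 and 770 FPKM with NaCl, against 1164, 1300 and 708 FPKM in the control. Neo-tetraploid control roots held the lowest mean of the 4 groups, and replicate 3 was the lowest within every group. The sums were a small part of the shoot level, which averaged 159670 ± 18514 FPKM in neo-tetraploid NaCl shoots and 168440 ± 25276 FPKM in neo-tetraploid control shoots. As a share of the level in NaCl shoots, the difference between NaCl and control roots had a median of 0.288% over the genes and ran from -0.304 to 0.987%. The 15 shoot identity markers, at 0.53 to 0.73 FPKM in NaCl roots and 0.3 to 0.93 FPKM in control roots, were near 0 in both groups, and none had enough counts to be tested. They averaged 163 FPKM in neo-tetraploid NaCl shoots and 197 FPKM in neo-tetraploid control shoots. In roots the marker sums averaged 0.637 ± 0.101 FPKM with NaCl and 0.717 ± 0.361 FPKM in the control (SD, n = 3 each). Whether a trace of shoot material had a part in the photosynthesis difference was not tested.

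CAB1, a chlorophyll a/b binding protein of the light-harvesting antenna, had 134, 154 and 96.6 FPKM in NaCl roots, against 57.4, 64.8 and 38.8 FPKM in control roots (log2 fold change 1.21 ± 0.1, adjusted p = 4.3e-05). CAB1 has near-identical copies, so that its share of their reads is uncertain. LHCA2, of the antenna of photosystem I, averaged 21.7 ± 1.79 FPKM in NaCl roots and 8.46 ± 2.5 FPKM in control roots (1.34 ± 0.16, adjusted p = 0.00033). DRT112, a plastocyanin, which carries electrons between the photosystems, averaged 19.5 ± 1.78 FPKM in NaCl roots and 7.69 ± 1.7 FPKM in control roots (1.3 ± 0.14, adjusted p = 0.00018). LHCB5, of the antenna of photosystem II, rose by 1.23 ± 0.12 (adjusted p = 0.00012). For none of these did the groups overlap.

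The genes of the chloroplast genome were described apart from the nuclear ones. Of 22 tested, 1 was a higher DEG (4.55%, against 1.09% of all genes). This gene, ATCG00020, lost its call in 5 of 6 fits that left out a library. The list median log2 fold change was 0.05.  The chloroplast genome genes made up 0.121 to 0.16% of the counts in NaCl roots and 0.109 to 0.127% in control roots.

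Many light-regulated genes hold the I-box, GATAAG, and G-box-like ACGTG letters. In the windows described above, GATAAG on either strand lay in 14.4% of tested genes, in 25 of the 56 photosynthesis genes (44.6%) and in 11 of the 23 that rose. ACGTG lay in 25 of the 56 (44.6%). The window of CAB1 is shown with its ACGTG matches and that of DRT112 with its GATAAG match in capitals. GATAAG was not in the window of CAB1, and that of DRT112 also held ACGTG.
CAB1 (chr1:10477635-10477934, plus strand): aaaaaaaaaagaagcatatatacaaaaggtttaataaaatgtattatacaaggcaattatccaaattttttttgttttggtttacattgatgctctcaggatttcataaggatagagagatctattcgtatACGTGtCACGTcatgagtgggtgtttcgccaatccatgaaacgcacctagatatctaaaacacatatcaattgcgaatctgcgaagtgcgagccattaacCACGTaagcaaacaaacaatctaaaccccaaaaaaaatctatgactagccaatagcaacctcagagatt
DRT112 (chr1:7043343-7043642, minus strand): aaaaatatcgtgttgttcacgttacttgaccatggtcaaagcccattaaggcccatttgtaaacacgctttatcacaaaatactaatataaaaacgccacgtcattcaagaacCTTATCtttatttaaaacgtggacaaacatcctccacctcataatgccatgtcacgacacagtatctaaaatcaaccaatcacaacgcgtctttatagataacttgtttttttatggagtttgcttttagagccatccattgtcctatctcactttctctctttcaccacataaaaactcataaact

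Flavonoid synthesis genes fell. Of 11 tested, 6 were lower DEGs (54.5%, against 2.09% of all genes) and none was higher, with a median of -1.16. In diploid roots 10 were lower DEGs with a median of -1.36. FLS1, flavonol synthase, had 19.5, 9.52 and 20.4 FPKM in NaCl roots, against 57, 31.2 and 63.1 FPKM in control roots (log2 fold change -1.67 ± 0.32, adjusted p = 0.0051). TT7, the flavonoid hydroxylase, fell by 1.45 ± 0.26 (adjusted p = 0.0039), although replicate 3 with NaCl, at 5.03 FPKM, lay above control replicate 2, at 5 FPKM. TT5 and CHIL, of the chalcone isomerase family, fell by 1.75 ± 0.34 and 1.25 ± 0.25, and lost their calls without NaCl replicate 2 (adjusted p = 0.052 and 0.055). Without that library the list had 3 lower DEGs.

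Aquaporins, the channels that carry water across membranes, held 2 higher DEGs among 29 tested (6.9%, against 1.09% of all genes). PIP2;5 had 12.7, 10.8 and 6.74 FPKM in NaCl roots, against 4.52, 4.53 and 3.53 FPKM in control roots (log2 fold change 1.19 ± 0.15, adjusted p = 0.00036). PIP2E, also called PIP2;6, had 5.33, 9.29 and 5.81 FPKM in NaCl roots, against 2.34, 2.41 and 1.07 FPKM in control roots (1.75 ± 0.31, adjusted p = 0.0035). The median over the aquaporins was -0.04.

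Nitrate genes held 1 higher and 2 lower DEGs among 24 tested (4.17% and 8.33%, against 1.09% and 2.09% of all genes), a small number of genes. NRT1.8, which removes nitrate from the xylem sap, had 11.4, 11.8 and 3.37 FPKM in NaCl roots, against 1.34, 2.64 and 1.83 FPKM in control roots (log2 fold change 2.05 ± 0.29, adjusted p = 0.00075). NRT2.4, a high-affinity nitrate uptake transporter, averaged 1.22 ± 1.03 FPKM in NaCl roots and 3.82 ± 1.55 FPKM in control roots (-1.75 ± 0.33, adjusted p = 0.0048), with replicate 1 above replicate 3 in both. Its groups overlapped, with NaCl replicate 1 at 2.39 FPKM and control replicate 3 at 2.33 FPKM. AT3G45700, of the major facilitator superfamily, fell by 1.05 ± 0.17 (adjusted p = 0.0023). The median over the list was -0.01, against -0.61 in diploid roots, where 5 members were lower DEGs. None passed the interaction.

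Iron deficiency genes held 2 lower DEGs among 27 tested (7.41%, against 2.09% of all genes). AT3G13610, a dioxygenase also called F6'H1, which makes the precursor of root coumarins, had 67.4, 36.1 and 44.1 FPKM in NaCl roots, against 168, 146 and 216 FPKM in control roots (log2 fold change -1.94 ± 0.24, adjusted p = 0.00036). The iron-regulated transcription factor gene bHLH39 had 4.26, 2.91 and 3.67 FPKM in NaCl roots, against 6.37, 6.16 and 8.51 FPKM in control roots (-1 ± 0.19, adjusted p = 0.0048). Among 17 phosphate genes, the ribonuclease gene RNS1 rose by 1.17 ± 0.23 and MGD2, of galactolipid synthesis, fell by 1.17 ± 0.22. Each is 5.88% of that list, against 1.09% higher and 2.09% lower over all genes.

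Indole glucosinolate and ER body genes, 22 tested, held 1 higher and 2 lower DEGs (4.55% and 9.09%, against 1.09% and 2.09% of all genes). BGLU18, a glucosidase of ER bodies that also frees abscisic acid from its glucose ester, had 3.7, 3.61 and 1.35 FPKM in NaCl roots, against 0.68, 1 and 0.37 FPKM in control roots (log2 fold change 1.99 ± 0.3, adjusted p = 0.0013). In diploid roots its log2 fold change was 0.23 ± 0.29, and the difference of 1.76 ± 0.43 did not pass the test of the interaction (adjusted p = 0.19). IGMT2 and CYP81F2, which modify indole glucosinolates, had log2 fold changes of -1.87 ± 0.41 and -2.14 ± 0.63. They lost their calls in 4 and 5 of the 6 fits that left out a library, among them those without NaCl replicate 2 (adjusted p = 0.082 and 0.18).

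Some single genes of further lists passed. WOX5, which marks the quiescent centre of the root tip, had 4.57, 4.39 and 3.68 FPKM in NaCl roots, against 0.6, 2.16 and 1.68 FPKM in control roots (log2 fold change 1.46 ± 0.32, adjusted p = 0.012, and 0.054 without NaCl replicate 1). RSL2, a regulator of root hair growth, had 17.8, 12.3 and 10 FPKM in NaCl roots, against 36.3, 33.4 and 27.8 FPKM in control roots (-1.36 ± 0.14, adjusted p = 0.00012). ASN1, the dark-induced asparagine synthetase, had 187, 140 and 55.5 FPKM in NaCl roots, against 37.7, 49 and 25.5 FPKM in control roots (1.6 ± 0.18, adjusted p = 0.00025). WOX5 and HKT1 were the DEGs of the 15 root identity markers, RSL2 that of the 12 root hair genes, and ASN1 that of the 15 dark-inducible genes. These shares were 13.3% (higher), 8.33% (lower) and 6.67% (higher), against 1.09% higher and 2.09% lower over all genes.

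Of 25 circadian clock genes, PRR9 and LHY were lower DEGs (8%, against 2.09% of all genes) and BOA was a higher one (4%, against 1.09%). PRR9, a morning repressor of the clock, had 4.29, 6.46 and 0.94 FPKM in NaCl roots, against 13.1, 13.8 and 3.37 FPKM in control roots (log2 fold change -1.5 ± 0.16, adjusted p = 0.00017). Replicate 3 was the lowest of both groups, so that the groups overlapped while NaCl was lower at each replicate number. LHY, a morning-expressed MYB repressor of the clock, fell by 1.18 ± 0.23 (adjusted p = 0.0065, and 0.068 without NaCl replicate 2). The groups of LHY and those of BOA also overlapped. BOA, a relative of LUX, had its highest value, 19.3 FPKM, in NaCl replicate 3, and lost its call without it (adjusted p = 0.18) and also without NaCl replicate 2, control replicate 1 or control replicate 3 (adjusted p = 0.057, 0.1 and 0.13). Times of harvest were not given in the sources used here, and their part in these values was not tested.

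No DEG was found among the tested genes of hypoxia (17), jasmonate (25), the Casparian strip and suberin (28), heat shock (19), xyloglucan endotransglucosylases (16), the cell cycle (22) and the mitochondrial genome (36) in edgeR, nor with DESeq2 or limma. An unadjusted p under 0.05 was found for 45 of these 163 list members (27.6%), against 25.9% of all tested genes. By list it was 9 of 16 xyloglucan endotransglucosylase, 8 of 17 hypoxia, 11 of 28 Casparian strip and suberin and 9 of 25 jasmonate genes. It was 5 of 19 heat shock, 2 of 22 cell cycle and 1 of 36 mitochondrial genes. At the adjusted p alone, 8 of the 163 were higher (4.91%) and 17 lower (10.4%), against 4.26% and 7.48% of all genes. Among them, 7 Casparian strip and suberin genes were lower (25% of that list) and 1 was higher. For xyloglucan endotransglucosylase genes, 5 were lower (31.2%) and 1 was higher. Hypoxia genes gave 3 higher and 2 lower, jasmonate genes 2 and 2, heat shock genes 1 lower and cell cycle genes 1 higher. In diploid roots, 5 of the 19 heat shock genes were higher DEGs, where 1.26% of all genes were. Their median was 0.46 there, against -0.18 in neo-tetraploid roots, and none passed the interaction. Diploid roots also had 1 higher jasmonate DEG and 1 lower DEG each of hypoxia and xyloglucan endotransglucosylase genes. ESB1, a dirigent protein of the Casparian strip, averaged 114 ± 13.2 FPKM in NaCl roots and 128 ± 5.34 FPKM in control roots (log2 fold change -0.23 ± 0.13, adjusted p = 0.29). MBF1C, a heat-stress coactivator, had a log2 fold change of -0.39 ± 0.26 (adjusted p = 0.4), against 1.49 ± 0.29 in diploid roots, and the difference of -1.88 ± 0.39 did not pass the test (adjusted p = 0.13).

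**Figure D3:**
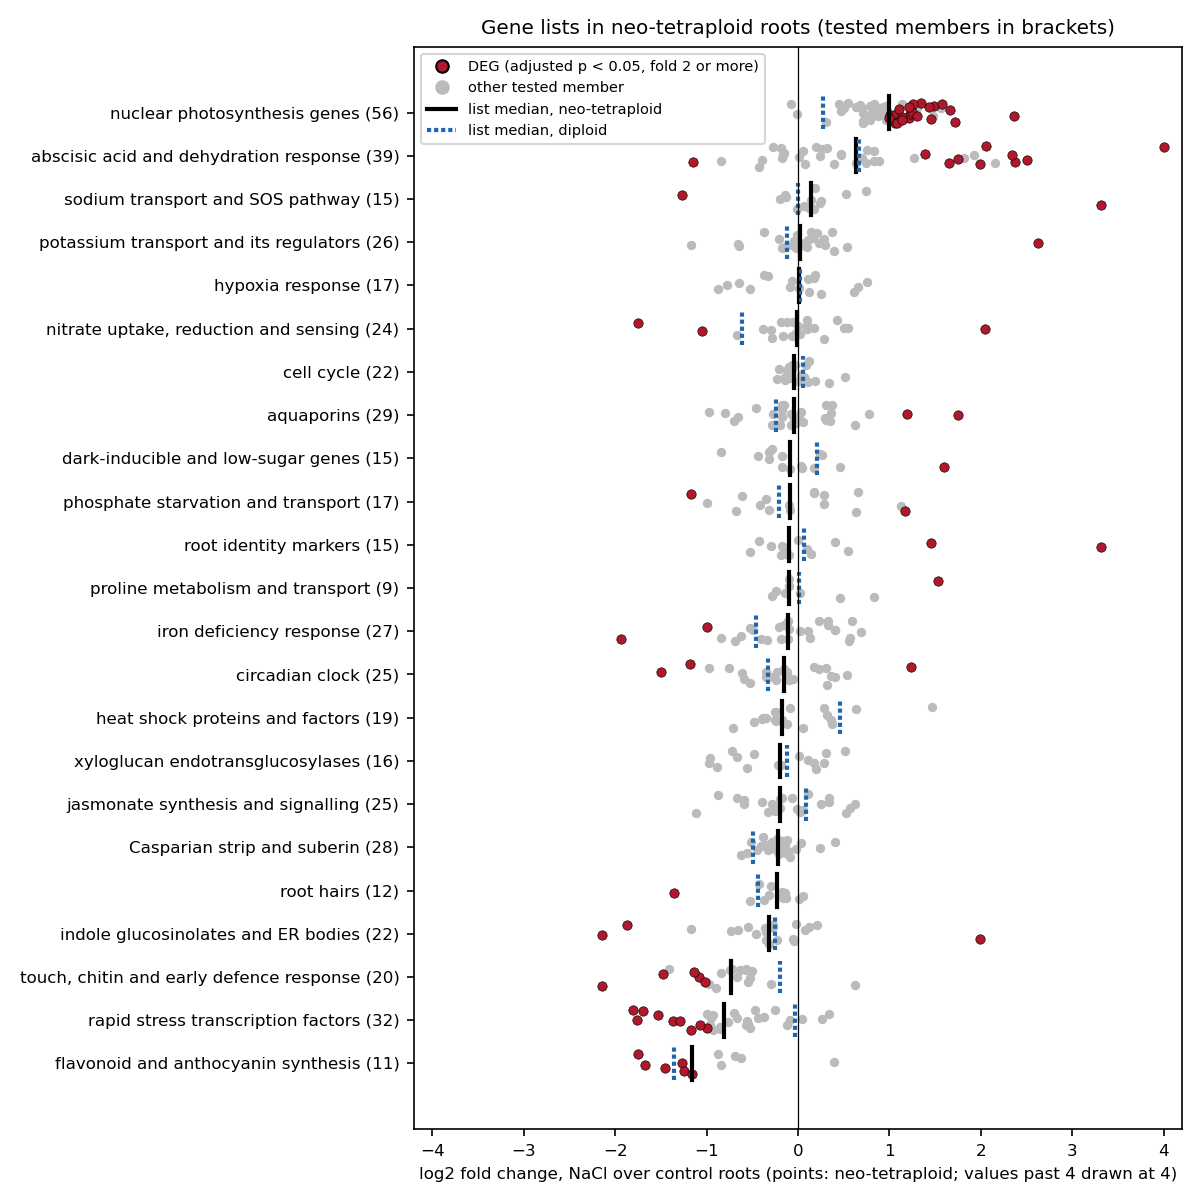
Log2 fold change of NaCl over control in neo-tetraploid roots for every tested member of 23 gene lists, ordered by the list median; red points are DEGs, black bars the neo-tetraploid medians and dotted blue bars the diploid medians. Photosynthesis genes have the highest median, 1, and flavonoid genes the lowest, -1.16. The neo-tetraploid and diploid medians lie apart for photosynthesis genes (1 and 0.27) and rapid stress transcription factors (-0.81 and -0.03). They also lie apart for heat shock (-0.18 and 0.46), nitrate (-0.01 and -0.61) and touch, chitin and early defence genes (-0.73 and -0.2), among others. Of the lists named here, only the rapid stress transcription factors held a member that passed the interaction.

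To ask whether neo-tetraploids respond as diploids do, the response was set beside that of the diploid roots, which share no library with it. In diploid roots 255 genes were higher DEGs (1.26% of the genes tested) and 443 lower (2.19%). A total of 322 genes were DEGs in both ploidies, 50.2% of the neo-tetraploid and 46.1% of the diploid DEGs, and all 322 changed in the same direction. Of the neo-tetraploid DEGs, 124 higher and 196 lower ones were not DEGs in diploids, and 40 had a diploid change of the opposite sign. The median diploid log2 fold change was 0.9 over the genes that rose in neo-tetraploids, whose own median was 1.37, and -1.13 over those that fell, whose own median was -1.38. These medians are over genes chosen for their change in neo-tetraploids.

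A DEG in one ploidy alone is not shown to differ between them. The interaction, the neo-tetraploid minus the diploid response, passed for 5 genes at a fold change of at least 2 (0.0247% of the genes tested) and for 6 at the adjusted p alone, with 2016 at an unadjusted p under 0.05. Their adjusted p was 0.05 to 2 digits. The count of 5 was 52 with DESeq2, 0 with limma or with no replicate block, and 0 to 63 when single libraries were left out. PIP2;5 was the one of them that was also a neo-tetraploid DEG. In diploid roots PIP2;5 had 8.42, 8.34 and 4.92 FPKM with NaCl, against 9.26, 7.54 and 6.73 FPKM in the control, and the responses differed by 1.4 ± 0.21. The neo-tetraploid control roots, at 3.53 to 4.53 FPKM, lay below all libraries of the other 3 groups.

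The other 4, named after their values were seen, rose with NaCl in diploid roots at the adjusted p and did not rise in neo-tetraploid roots. DREB2A, a transcription factor of dehydration and heat, had 62.5, 69.8 and 85.3 FPKM in neo-tetraploid NaCl roots, against 90.8, 98 and 110 FPKM in neo-tetraploid control roots. In diploid roots it had 52, 76.7 and 98.1 FPKM with NaCl, against 37.6, 37.3 and 39.2 FPKM in the control, and the difference between responses was -1.4 ± 0.19. For OZF1, ATCTH and AT3G14200, 2 zinc-finger proteins and a DnaJ-domain protein, the differences were -1.45 ± 0.21, -1.23 ± 0.16 and -1.27 ± 0.18. In neo-tetraploid roots DREB2A fell by 0.52 ± 0.13 (adjusted p = 0.021) and AT3G14200 by 0.65 ± 0.12 (adjusted p = 0.0053). Of the 6 fits that left out a library, DREB2A stayed under an adjusted p of 0.05 in 1 and AT3G14200 in 5. The changes of OZF1 and ATCTH in neo-tetraploid roots did not pass the adjusted p.

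The DEGs with the next smallest interaction p missed the threshold. PBP1, which binds the kinase PINOID, had 5.59, 4.96 and 4.99 FPKM in neo-tetraploid NaCl roots, against 12.7, 12.9 and 14.5 FPKM in neo-tetraploid control roots (log2 fold change -1.42 ± 0.23, adjusted p = 0.0018). With NaCl, diploid roots had 8.66, 4.76 and 4.5 FPKM, against 2.66, 3.08 and 3.48 FPKM in the control, and the difference of -2.29 ± 0.35 had an adjusted p of 0.061. For CAB1 the difference was 0.84 ± 0.14 (adjusted p = 0.086), for FBA2, a chloroplast aldolase, 1.91 ± 0.35 (0.086), for AT3G48510 -2 ± 0.36 (0.086) and for AT5G62280 -1.26 ± 0.23 (0.091). FBA2 lost its NaCl call without control replicate 2 (adjusted p = 0.084).

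**Figure D4:**
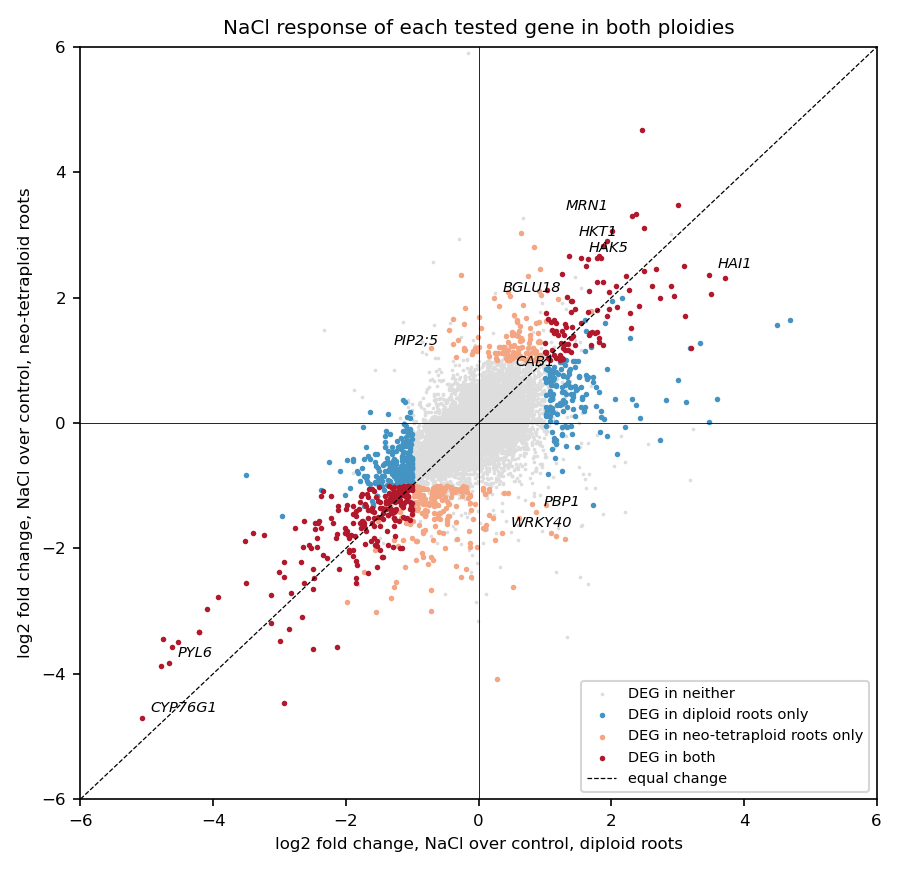
Log2 fold change of NaCl over control for each tested gene in neo-tetraploid roots (vertical axis) and diploid roots (horizontal axis), coloured by DEG status, with a dashed line of equal change; 7 genes past 6 on either axis are not drawn. The 322 genes called in both ploidies lie in the upper right and lower left parts, while PIP2;5, PBP1 and WRKY40 lie across an axis.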

How the data were processed

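Roots and shoots of diploids and neo-tetraploids with and without NaCl gave 24 libraries of oligo(dT)-selected RNA, read as single ends on a BGISEQ-500. The authors mapped the reads to TAIR10 with HISAT and Bowtie2 and deposited, per library and gene, the expected count of RSEM, which is not normalized, and FPKM. The libraries together listed 26405 genes, and a gene not listed in a library was set to 0 there. Expected counts were rounded. A gene was tested if 3 or more of the 12 root libraries held 10 counts or more of it, in edgeR 4.0.16 (TMM, quasi-likelihood, R 4.3.3) with a mean per group and the replicate number as a block, and p was adjusted by Benjamini-Hochberg over 20239 genes. Same-numbered neo-tetraploid NaCl and control libraries had correlated deviations from their group means (0.249, 0.146 and 0.292), and the numbers were taken to pair them. Libraries of unlike number were not compared in this way, so these values do not establish the pairing. Over the other pairs of root groups the correlations ran from -0.0122 to 0.439. At replicate 2 those of the diploid control with diploid NaCl (0.0872) and with neo-tetraploid NaCl (-0.0122) were under 0.1. Any pairing is thus weaker for the diploid fit and the interaction. The fit was tested on simulated data. NOISeq, the test of the study's methods, was not used.

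Named were the 12 largest rises and falls without overlap and with a mean of at least 50 counts in the higher group, up to 4 DEGs per list by adjusted p, 7 genes the study names, and the 6 DEGs with the smallest interaction p. The 24 lists hold 575 genes, and 548 of their symbols were matched in TAIR10.1, which was used for names and promoter windows. Members and lists were chosen with earlier results of these data known. Alternatives used DESeq2 1.42.0, limma 3.58.1 on log2(FPKM + 1) and log2(FPKM + 0.1), other scaling, filters and samples. Shoot libraries served as a check of the tissue.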

Additional observations from a re-analysis of the deposited data

Results flagged for a closer look

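The NaCl response differed between neo-tetraploid and diploid roots in the test of the interaction for 6 genes. The difference, neo-tetraploid minus diploid on the log2 scale, was 1.4 for PIP2;5 and 0.85 for AT3G18280, a lipid-transfer-like protein. It was -1.4 for DREB2A, -1.45 for OZF1, -1.23 for ATCTH and -1.27 for AT3G14200. AT3G18280 had 185, 199 and 156 FPKM in neo-tetraploid NaCl roots, against 119, 124 and 99 FPKM in neo-tetraploid control roots. In diploid roots it had 157, 167 and 115 FPKM with NaCl, against 161, 169 and 156 FPKM in the control. For all 6 genes the neo-tetraploid and diploid control libraries did not overlap. The control values enter the interaction by which these genes were chosen, so this is a description and no separate result. No group had enough libraries for a test of single outlying samples.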

How the results depend on the processing

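No neo-tetraploid DEG changed direction in any alternative fit. The DEGs were picked for a large change and the fits reuse the same libraries, so this adds no support. Of the 642 DEGs, 543 stayed DEGs with DESeq2, 480 with no replicate block and 348 with limma on log2(FPKM + 1). Without NaCl replicate 2, 369 stayed, and without replicate 2 in every group 228. DEGs were 220 higher and 422 lower, and 863 and 1513 with no fold threshold. With limma on log2(FPKM + 1) they were 136 and 220. Leaving out single libraries, or 1 replicate number from every group (an alternative chosen after seeing the data), gave 88 to 241 higher and 158 to 432 lower DEGs, the lowest without replicate 2 in every group; without NaCl replicate 2 there were 237 lower. In diploid roots the counts of 255 and 443 became 1287 and 2024 with no fold threshold, 224 lower with limma on log2(FPKM + 1), and 91 to 295 and 199 to 603 with libraries left out (167 higher without diploid control replicate 2).

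The interaction rested on the settings. Its 5 DEGs became 52 with DESeq2, 23 with no low-count filter, 28 without replicate 1 in every group, 2 with library size only and 0 with limma on either FPKM scale, and 0 to 63 with libraries left out. With no replicate block there were 0. The block also moved the photosynthesis list, with 13 higher DEGs without it against 23 with it, the rapid stress transcription factors, with 5 lower against 9, and the touch, chitin and early defence genes, with 2 lower against 5. Without the block the totals were 159 higher and 323 lower DEGs. The cause of these shifts was not tested.

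At this depth, with 3 libraries a group, genes at a few counts were not tested.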

Other observations

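The genes below were chosen after their values were seen, and their counts are descriptions. MRN1 lies in a run of 4 neighbouring genes that all rose. CYP705A12, CYP71A16 and AT5G42610, beside it on chromosome 5, rose by 1.36 ± 0.17, 1.28 ± 0.12 and 1.17 ± 0.25 on the log2 scale. CYP71A16, the cytochrome P450 that oxidises marneral, averaged 115 ± 19.9 FPKM in NaCl roots and 45.3 ± 1.97 FPKM in control roots (SD, n = 3 each). In diploid roots the 4 genes had log2 fold changes of 1.39 (CYP705A12), 1 (CYP71A16), 2.38 (MRN1) and 1.3 (AT5G42610). A run of 4 genes of the DUF1262 family on chromosome 1, AT1G13520 to AT1G13550, fell by 1.01 to 1.8. Such copies can share reads. In all, 65 DEGs lay in 30 runs of neighbours of one direction. The share for genes picked without regard to position is not given here, so this count shows no clustering.

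By the product names of the reference, lipid-transfer proteins and expansins, which loosen cell walls, had more higher DEGs than the 1.09% of all genes. The lipid-transfer proteins had 10 higher and 3 lower DEGs among 58 tested (17.2% higher), and the expansins 4 and 1 among 22. WRKY factors had 10 lower DEGs and no higher one among 62 (16.1%, against 2.09% of all genes), with 4 lower in diploid roots. Dioxygenases that use 2-oxoglutarate had 8 lower (9.09%) and 1 higher (1.14%) among 88. Cytochromes P450 had 11 lower (6.59%) and 4 higher (2.4%) among 167.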
